A study of Mus musculus with 6 samples.

Results

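This set holds 51 genes of the distal part of mouse chromosome 10, from Nap1l1 at chr10:111473223-111498150 to Itga7 at chr10:128933818-128958282 (assembly GRCm38, the build that mm10 denotes), among 25215 genes measured in single melanoma cells. The set was chosen by the mean expression of the region in R499 tumors against B16 tumors of these same data, so that the R499 levels and differences given here describe the genes and carry no test. Of the 51 genes, 46 were detected in more than 5 retained cells and could be tested among 11264 genes. The other 5, Irak3, B4galnt1, Gli1, Suox, and Itga7, were detected in 1, 3, 0, 4, and 1 of 507 retained cells. The label of raised genes did not hold for every member, since 34 of the 46 tested members had a higher mean in R499 than in B16, against 55.1% of all tested genes, and 33 had a higher mean than in B16PD1, against 57.2%.

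Many of these genes are studied for their part in growth control. Mdm2 encodes the ubiquitin ligase that marks the tumor suppressor p53 for degradation, and Cdk4 encodes the kinase that, with a D-type cyclin, phosphorylates the retinoblastoma protein and so releases E2F factors at the start of the cell cycle. The human counterparts of both lie on one chromosome arm that is amplified in some sarcomas, together with neighbors such as Hmga2 and Frs2. The values used here are of RNA, and DNA copy number was not analysed.

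The tumors grew in C57BL/6 mice from 50000 cells injected subcutaneously and were harvested on day 15. B16 denotes untreated tumors of the melanoma line B16-F10, B16PD1 denotes tumors of the same line in mice that received 200 μg of anti-PD1 on each of days 5, 8, and 11, and R499 denotes untreated tumors of Res499, a line derived from a B16-F10 tumor that had relapsed after radiation and anti-CTLA4. Each condition had 2 mice, with tumors named here B16007 and B16008, B16PD1000 and B16PD1002, and R499015 and R499016, and each line is represented once, so a difference between R499 and B16 belongs to these 2 lines and cannot be told apart from other differences between them. Cells without CD45, the common surface protein of immune cells, were sorted, and Smart-seq was used to cover transcripts over their full length.

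After filtering, 75 to 91 cells per tumor remained, with a median of 3141 to 3839 genes detected per cell. The pigment-cell markers Tyrp1, Dct, and Pmel were detected in 100% of retained cells of every tumor, and the least detected of 7 such markers, Sox10, in 59.3% to 71.6%. Of 24 markers of immune, fibroblast, endothelial, and keratinocyte cells, 12 were at 0 in every tumor, and the highest share was 8.14% of cells, for Fcer1g in B16008. Ptprc, which encodes CD45, was detected in 1 tumor only, B16007, in 1.10% of its cells. Of the 10 immune markers, 4 passed the filter on genes, and their summed log2(TPM + 1) per cell was 0.87 and 0.62 for B16, 0.66 and 1.26 for B16PD1, and 0.28 and 0.52 for R499. The R499 tumors thus had the lowest immune marker sums, and the part of this in the levels given here was not tested.

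Promoters of Cdk4, Mdm2, Cdk2, and Cd63 are shown because Cdk4 and Mdm2 are the best known genes of the region, and Cdk4, Cdk2, and Cd63 are its 3 members with the highest level. Each sequence runs 5′ to 3′ from 250 bases before to 50 bases after the RefSeq start of the gene (GRCm38.p6), and capitals mark the canonical E-box CACGTG, which reads the same on both strands. The windows are chr10:127063285-127063584 on the plus strand, chr10:117710709-117711008 on the minus strand, chr10:128705002-128705301 on the minus strand, and chr10:128909095-128909394 on the plus strand. GENCODE places Cd63 at chr10:128900989-128912822, so the Cd63 window lies inside the annotated gene, downstream of its first base.
Cdk4: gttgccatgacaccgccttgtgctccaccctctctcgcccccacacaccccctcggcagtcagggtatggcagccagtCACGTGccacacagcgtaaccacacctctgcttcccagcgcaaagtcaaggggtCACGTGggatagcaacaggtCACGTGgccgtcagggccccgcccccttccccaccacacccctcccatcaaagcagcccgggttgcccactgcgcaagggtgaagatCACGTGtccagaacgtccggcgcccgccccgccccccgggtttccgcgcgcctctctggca
Mdm2: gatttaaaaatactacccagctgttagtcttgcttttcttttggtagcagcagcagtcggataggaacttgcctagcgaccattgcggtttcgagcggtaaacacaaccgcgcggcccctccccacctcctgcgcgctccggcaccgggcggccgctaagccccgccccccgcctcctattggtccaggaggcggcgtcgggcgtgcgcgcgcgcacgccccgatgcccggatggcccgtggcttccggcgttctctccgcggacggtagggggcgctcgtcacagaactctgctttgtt
Cdk2: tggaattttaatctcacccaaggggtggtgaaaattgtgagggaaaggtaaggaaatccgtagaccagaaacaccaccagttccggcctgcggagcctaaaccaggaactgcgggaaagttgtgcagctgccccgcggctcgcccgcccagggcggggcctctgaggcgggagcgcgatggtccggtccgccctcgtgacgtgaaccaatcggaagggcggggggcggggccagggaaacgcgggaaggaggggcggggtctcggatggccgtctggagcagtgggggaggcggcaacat
Cd63: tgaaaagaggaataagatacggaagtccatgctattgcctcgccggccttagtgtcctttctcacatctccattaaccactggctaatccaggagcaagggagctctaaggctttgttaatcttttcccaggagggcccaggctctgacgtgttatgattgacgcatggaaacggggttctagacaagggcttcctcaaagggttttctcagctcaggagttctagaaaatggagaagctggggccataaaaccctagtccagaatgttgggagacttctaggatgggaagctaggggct

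The window of Cdk4 held 4 copies of CACGTG, which began 172, 118, 98, and 11 bases before the start. Only 8 of 32851 promoters in the RefSeq table held 4 or more, and 7.15% held at least 1. The windows of Mdm2, Cdk2, and Cd63 held none. Over the set, 44 of 51 members had 53 promoters in the table, and 15.1% of those promoters held CACGTG. The GC box GGGCGG, searched on both strands, occurred in 67.9% of the members' promoters and in 35.7% of all promoters, and CCAAT, searched likewise, in 26.4% and 37.4%. A base could belong to more than one motif, and a match is a description of these letters.

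Levels are given as the mean over the retained cells of a tumor of log2(TPM + 1), where TPM is transcript abundance already divided by length and set to one fixed total per cell. From each cell the mean over the 11264 tested genes was first subtracted, so a level of 0 is that of an average gene in the cell. The mean number of genes detected per cell was 3332 and 3456 in the R499 tumors and 3496 to 3787 in the other 4 tumors. The medians did not have this order, since that of R499016, 3682, was above those of B16007 and B16008, 3647 and 3388.5. A gene at TPM 0 in every cell would have had a centred level 0.10 higher in R499 than in B16. Without centring, the median R499 minus B16 difference over all tested genes moved from 0.03 to -0.07. Every R499 minus B16 difference given here is 0.10 lower without centring, and every R499 minus B16PD1 difference 0.14 lower.

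Cdk4 (chr10:127063534-127067920) had a level of 6.88 and 6.78 for B16, 6.65 and 6.90 for B16PD1, and 7.30 and 7.27 for R499. Both R499 tumors were above the other 4. The R499 minus B16 difference was 0.45 ± 0.26 (SE), and the R499 minus B16PD1 difference was 0.51. Mean TPM of Cdk4 was 674 in B16, 617 in B16PD1, and 825 in R499, and the gene was detected in 97.7% of B16 cells, 98.9% of B16PD1 cells, and 98.1% of R499 cells. Nearly every cell of each condition thus had the gene detected, at a higher level in R499. The last exon of Cdk4 overlaps that of Tspan31 on the opposite strand, and RSEM was run with its default settings, which do not use strand, so reads of the overlap cannot be assigned to one of them with certainty.

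Mdm2 (chr10:117688875-117710758) did not share this pattern. Its level was 1.14 and 2.05 for B16, 1.74 and 1.63 for B16PD1, and 1.58 and 1.89 for R499, and both R499 tumors lay between the B16 tumors. The R499 minus B16 difference was 0.14 ± 0.36 (SE), and its standard error exceeded it. Leaving out 1 tumor moved it from -0.31 without B16007 to 0.60 without B16008, with -0.01 without R499016 and 0.30 without R499015. Mdm2 was detected in 61% of B16 cells, 66.7% of B16PD1 cells, and 62.2% of R499 cells.

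The cell cycle and p53 group held 6 more genes. Cdk2, the partner of cyclins E and A in S phase, had 6.07 and 6.14 for B16, 5.73 and 5.75 for B16PD1, and 6.46 and 6.36 for R499, and its R499 minus B16 difference was 0.31 ± 0.28 (SE). Pa2g4, a growth regulator that binds ErbB3, had 3.95 and 3.95 for B16, 4.0 and 4.13 for B16PD1, and 4.33 and 4.48 for R499, with a difference of 0.46 ± 0.33 (SE). Both genes were above the other 4 tumors in both R499 tumors, and the B16PD1 tumors had the lowest levels of Cdk2. An exon of Cdk2 overlaps Pmel on the opposite strand, and Pmel, one of the most abundant genes of these cells, was itself higher in R499, at 10.27 and 10.07 against 9.25 to 9.63. In all, 7 of the 8 genes of the group had a higher mean in R499 than in B16, against 55.1% of all tested genes, with a median difference of 0.21. In 4, namely Cdk4, Cdk2, Pa2g4, and the kinase Dyrk2, both R499 tumors were above the rest, as in 14.2% of all tested genes. Without centring these counts were 6 and 3, against 35.8% and 4.47% of all tested genes. The exception in direction was Cand1, an exchange factor of cullin ubiquitin ligases, at -0.06. The chromatin reader Yeats4 differed by 0.08, and its tumors overlapped. The eighth gene, Timeless, acts at replication forks.

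Membrane and surface proteins held the largest difference of an abundant gene. Cd63, a tetraspanin of late endosomes, melanosomes, and exosomes, was the member with the highest level, at 9.24 and 9.14 for B16, 9.31 and 9.23 for B16PD1, and 10.28 and 9.85 for R499. Both R499 tumors stood apart from the other 4. The difference from B16 was 0.87 ± 0.19 (SE), and that from B16PD1 was 0.79. Mean TPM was 2464 in B16, 2669 in B16PD1, and 4146 in R499, and Cd63 was detected in 100% of retained cells in every tumor. A pseudogene copy, Cd63-ps, is also listed, and reads common to both may have been assigned to either.

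Tspan31, another tetraspanin and the exon neighbor of Cdk4, had 4.22 and 3.85 for B16, 4.84 and 4.22 for B16PD1, and 4.74 and 4.46 for R499. Its R499 minus B16 difference was 0.57 ± 0.34 (SE), but tumor B16PD1000 was above both R499 tumors and the R499 minus B16PD1 difference was 0.07. All 6 tested genes of the group had a higher mean in R499 than in B16, against 55.1% of all tested genes. Their median difference was 0.34. Both R499 tumors were above the rest in 4 of them, Cd63, Tmem19, Glipr1, and Tspan8, and in 14.2% of all tested genes. Without centring 5 had a higher mean and 3 had both R499 tumors above the rest, against 35.8% and 4.47% of all tested genes. Glipr1 and Tspan8 were detected in only 8 and 7 of the 507 cells, where their centred levels mostly show the value of an undetected gene. The endocytic receptor Lrp1, detected in 7 cells and named after its values were seen, was not detected in any R499 cell, yet its centred difference was 0.05 and its difference without centring was -0.06.

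Signaling genes were led by Phlda1, a gene induced by growth factor signals, which had the highest level of the 10 tested in the group. Phlda1 stood at 1.99 and 1.87 for B16, 1.34 and 2.31 for B16PD1, and 2.59 and 2.65 for R499, with a difference from B16 of 0.69 ± 0.36 (SE). Rap1b, a small GTPase that regulates cell adhesion, stood at -1.07 and -0.85 for B16, -1.0 and -0.72 for B16PD1, and -0.38 and -0.53 for R499, with a difference of 0.51 ± 0.25 (SE). Both R499 tumors were above the rest in these and in 4 more, the adaptor Frs2, the Ras association protein Rassf3, Nab2, and Srgap1, the last 2 detected in 19 and 8 cells. That order was found in 14.2% of all tested genes, and in 18.6% of those at or below the median level of the members. Without centring it was found in 3 of the 10, against 4.47% of all tested genes. Rap1b was detected in 22.6% of B16 cells, 28.7% of B16PD1 cells, and 30.8% of R499 cells. Stat6, the transcription factor of interleukin-4 signaling, and Tbk1, a kinase of innate immune signaling, had lower means in R499 than in B16, by -0.03 and -0.11, and their tumors overlapped. The remaining tested genes, Lgr5 and Dgka, were detected in 13 and 11 cells.

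RNA processing and nuclear transport held both ends of the range. Krr1, a ribosome biogenesis factor, had the largest difference of all members, with levels of -0.41 and -0.27 for B16, -0.07 and 0.16 for B16PD1, and 0.61 and 0.59 for R499. The difference from B16 was 0.94 ± 0.30 (SE), and that from B16PD1 was 0.55. Krr1 was detected in 37.3% of B16 cells, 44.8% of B16PD1 cells, and 50% of R499 cells, and its mean TPM was 12.8 in B16, 18.2 in B16PD1, and 21.7 in R499. Its exons overlap those of Glipr1 on the opposite strand, and reads of the overlap cannot be assigned to one of them with certainty. At the other end, the nuclear pore component Nup107 had -0.61 and -0.16 for B16, -0.47 and -0.31 for B16PD1, and -1.02 and -0.15 for R499, with a difference of -0.20 ± 0.31 (SE). Tumor R499015 alone was low in Nup107, and without it the difference was 0.24.

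The tRNA exporter Xpot stood at -0.31 and -0.07 for B16, -0.74 and 0.24 for B16PD1, and -0.62 and -0.12 for R499. The RNA-binding protein R3hdm2 stood at -1.42 and -1.05 for B16, -0.98 and -1.52 for B16PD1, and -1.28 and -1.50 for R499. The tumors of the groups overlapped for both genes, and the differences from B16 were -0.18 for Xpot and -0.16 for R3hdm2. Both turned sign when 1 tumor was left out, to 0.07 for Xpot without R499015 and 0.03 for R3hdm2 without B16008. Sarnp, a nuclear RNA-binding protein, stood at 2.96 and 3.43 for B16, 2.78 and 3.39 for B16PD1, and 3.5 and 3.66 for R499. Its R499 tumors were above the other 4 only after centring, with a difference of 0.38 ± 0.35 (SE). The gene shares exons with Dnajc14 on the same strand, so that reads may have been split between them. The Sarnp difference was 0.15 without B16007, 0.62 without B16008, 0.07 in cells of 2500 to 5000 genes, and 0.03 with genes detected as a covariate. The cleavage factor Cpsf6 differed by 0.25, or by -0.17 without R499016, and its tumors overlapped. Over the 8 genes of the group, 5 had a higher mean in R499 than in B16, against 55.1% of all tested genes. Only 3 had a higher mean in R499 than in B16PD1, against 57.2%. In 2, Krr1 and Sarnp, both R499 tumors were above the rest, as in 14.2% of all tested genes. Without centring this held for 1, Krr1, against 4.47% of all tested genes.

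Protein folding and membrane traffic genes included Rab21, a small GTPase of early endosomes, at -1.11 and -1.41 for B16, -1.24 and -0.92 for B16PD1, and -0.50 and -0.63 for R499. Both R499 tumors were above the rest, and Rab21 was detected in 21.5% of B16 cells, 25.9% of B16PD1 cells, and 34% of R499 cells. Its difference was 0.69 ± 0.23 (SE). The chaperonin subunit Cct2 stood at 5.74 and 6.14 for B16, 5.50 and 5.57 for B16PD1, and 5.46 and 6.25 for R499, and Dctn2, a subunit of dynactin, at 2.29 and 2.27 for B16, 2.71 and 1.72 for B16PD1, and 2.34 and 2.36 for R499. Neither showed the R499 tumors apart from the others, and the Cct2 difference of -0.08 turned to 0.31 without R499015. Rab5b, an endosomal GTPase, stood at 1.87 and 1.32 for B16, 0.81 and 0.68 for B16PD1, and 2.09 and 1.77 for R499. Its low values were those of both B16PD1 tumors, while B16 and R499 overlapped.

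Of the 5 chromatin and DNA binding genes, 2 had a higher mean in R499 than in B16, against 55.1% of all tested genes. The histone chaperone Nap1l1 stood at 3.95 and 3.35 for B16, 3.42 and 3.71 for B16PD1, and 3.71 and 3.51 for R499. The groups overlapped, and its difference was -0.04 ± 0.35 (SE). Atxn7l3b and Baz2a had both R499 tumors above the rest, as in 14.2% of all tested genes. Their differences were 0.49 and 0.37, the first of which was 0.29 without R499016. Without centring only Baz2a kept both R499 tumors above the rest, as in 4.47% of all tested genes. Hmga2, an architectural protein of fetal tissue and many tumors, was the sole member with both R499 tumors below the other 4, at -1.56 and -1.41 for B16, -1.48 and -1.40 for B16PD1, and -1.59 and -1.66 for R499. It was detected in 13% of B16 cells, 14.9% of B16PD1 cells, and 5.77% of R499 cells, and its difference was -0.14 ± 0.13 (SE), or -0.06 without B16008. Thap2 stood at -0.81 and -1.03 for B16, -1.04 and -0.65 for B16PD1, and -0.91 and -1.19 for R499, with overlapping groups.

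Of the metabolic enzymes, Cs, the citrate synthase that opens the tricarboxylic acid cycle, stood at 4.47 and 4.55 for B16, 4.81 and 4.42 for B16PD1, and 4.68 and 4.74 for R499, and Tph2, a tryptophan hydroxylase, at -1.06 and -0.94 for B16, -0.72 and -1.28 for B16PD1, and -1.18 and -1.17 for R499. The R499 tumors lay within the range of the others for both. The differences from B16 were 0.20 for Cs and -0.18 for Tph2.

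**Figure D1:**
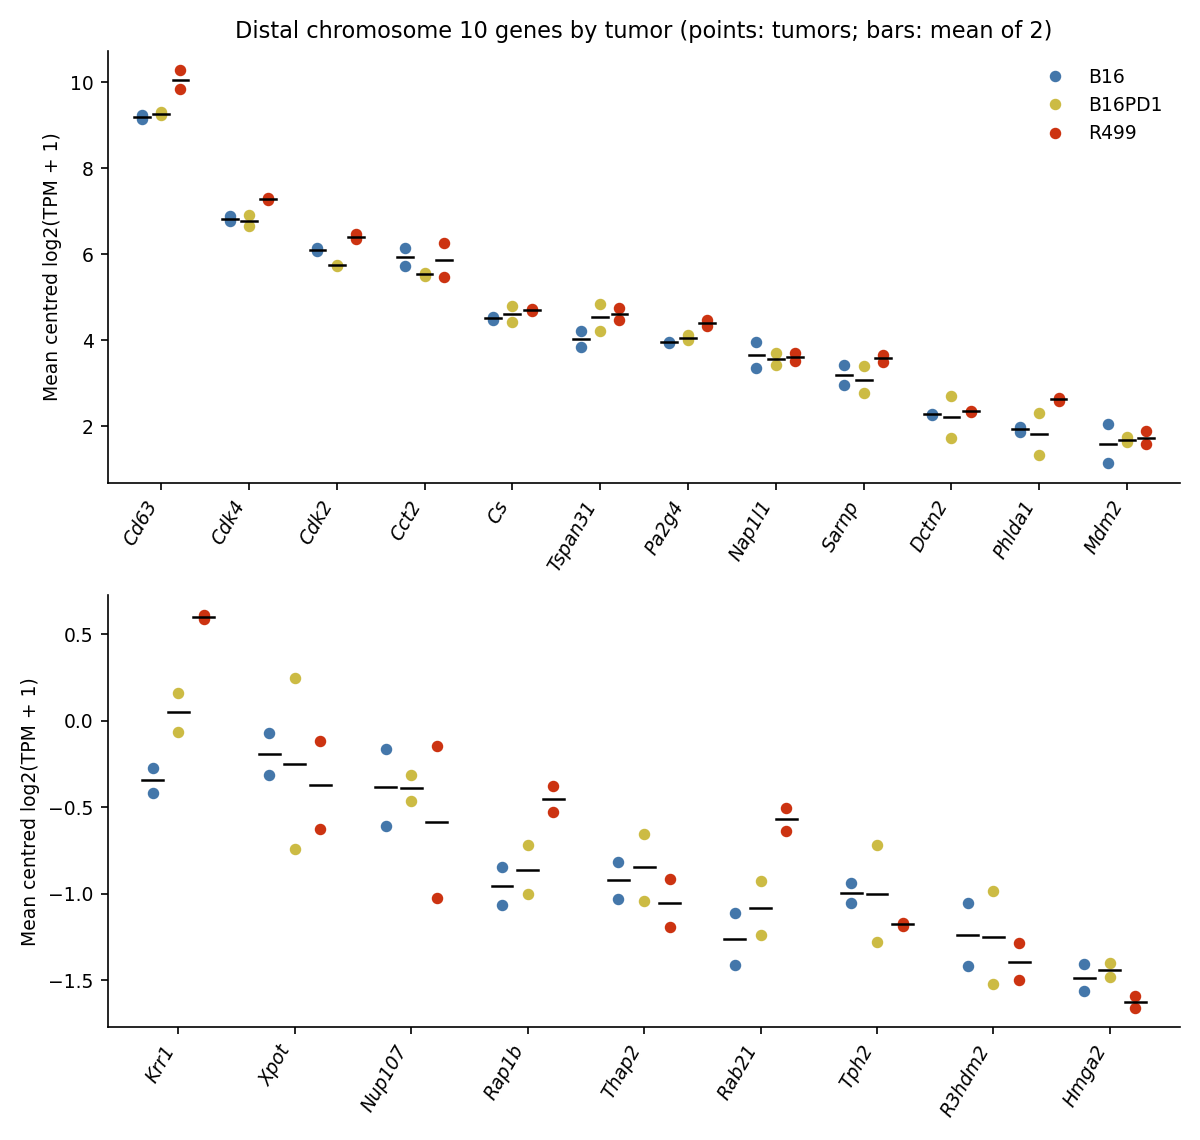
Mean centred log2(TPM + 1) of the 21 members described singly, ordered by level, with 1 point per tumor and a bar at the mean of the 2 tumors of a condition. Both R499 tumors sit above the other 4 for genes such as Cd63, Cdk4, Krr1, and Rab21, while those of Mdm2, Cct2, and Nap1l1 lie among the others.

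Over the 46 tested members, the median R499 minus B16 difference was 0.20, against 0.03 over all tested genes, and the median R499 minus B16PD1 difference was 0.18, against 0.05. Without centring these medians were 0.09 against -0.07, and 0.04 against -0.09. Relative to the median of all genes, which moves with the scaling, 34 of 46 members were higher in R499 minus B16. In 19 members both R499 tumors were above the other 4, while 14.2% of all tested genes had that order, and 1 member had both below, as did 8.63% of all genes. Without centring the first count was 12, against 4.47% of all genes. These values follow from how the set was chosen and are no evidence of their own. Leaving out 1 tumor turned the sign of the R499 minus B16 difference in 17 of the 26 members whose R499 tumors overlapped the others, among them Mdm2, Nap1l1, Cct2, Stat6, Tbk1, Cand1, Yeats4, and Thap2. In the 20 without overlap, leaving out a tumor cannot turn it.

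The share of cells in which a member was detected was higher in R499 than in B16 for 23 of 46 members and for 33.9% of all tested genes, with a median change of 0.11 percentage points for members and -1.59 points over all tested genes. Among the 27 tested members with a mean TPM of at least 10 in B16, the ratio of R499 to B16 mean TPM had a median of 1.13 and ranged from 0.26 for R3hdm2 to 1.69 for Krr1, against a median of 0.93 over the 6002 genes above the same level.

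**Figure D2:**
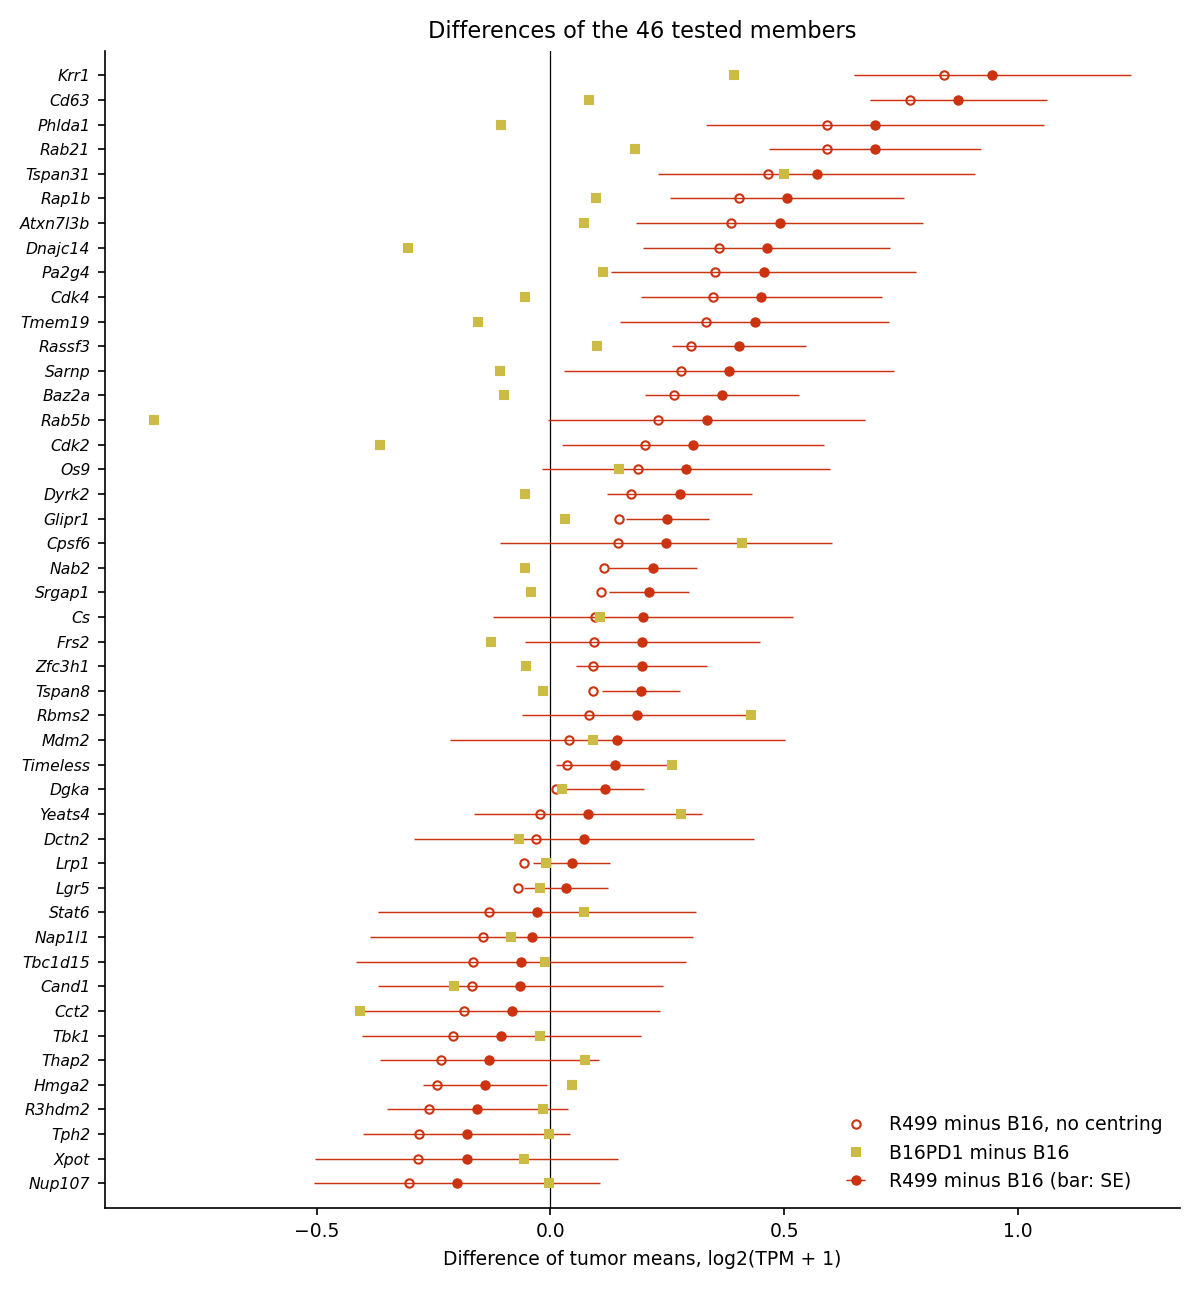
Differences of tumor means for the 46 tested members, sorted by R499 minus B16 (filled circles, bars are limma standard errors), with the same difference without centring (open circles) and B16PD1 minus B16 (squares), on the log2(TPM + 1) scale. The R499 minus B16 values run from -0.20 for Nup107 to 0.94 for Krr1, and the open circles lie to the left by 0.10.

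Anti-PD1 treatment of the parental line was a comparison that did not enter the choice of genes, although it shares the B16 tumors with the one that did. No member of 46 passed an adjusted p of 0.05 in limma for B16PD1 minus B16, and none of the 11264 genes (0%) did so, with 550 genes and 1 member at an unadjusted p under 0.05. That member was Rab5b, with a difference of -0.85 on the log2 scale and an adjusted p of 0.97. Differences were above 0 for 20 members, and for 45.3% of all tested genes, with a median of -0.01 and a range from -0.85 to 0.50. Their standard errors ran from 0.08 to 0.36, so with 2 tumors a condition moderate changes of single genes could not be detected.

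Along chromosome 10 the higher level in R499 was not limited to the listed genes. The 65 other tested genes between the first member and the end of the chromosome had a median R499 minus B16 difference of 0.20, equal to that of the members, and 55 of them were above 0, against 55.1% of all tested genes. Without centring 42 were, against 35.8%. These 65 genes lie in the region by whose mean expression the set was chosen, so their values are no evidence of their own. Among the 65 are Pmel, Cnpy2, and Bloc1s1, chosen for mention after their values were seen, at 0.68, 0.99, and 1.24. Within the set, the 22 tested members from Nap1l1 to Cand1 had a median of 0.19, the 5 from Hmga2 to Srgap1 one of -0.11, and the 19 from Cdk4 to the end of the list one of 0.29. The middle stretch, with Hmga2, Tbk1, Xpot, Rassf3, and Srgap1, thus had the lowest median, on 5 genes.

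The remainder of the chromosome was compared in successive blocks of at least 50 tested genes. In the first 8 blocks, which end at chr10:3366057-93540033, R499 minus B16 lay between -0.04 and 0.08 with adjusted p-values of at least 0.39 in limma over 216 blocks. The next block, which ends at 115.4 Mb, holds 9 members among its 51 genes and differed by 0.25, with tumor values of -0.30 and -0.26 for B16, -0.33 and -0.21 for B16PD1, and -0.02 and -0.04 for R499. The last 2 blocks, to 130.4 Mb, differed by 0.14 and 0.27. These 3 blocks hold members and get no p. Over all 216 blocks of the genome, with these 3 among them, 10 (4.63%) passed the threshold in this contrast and 3.24% in R499 minus B16PD1.

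Smaller blocks of at least 25 genes separated the members from their neighbors. The block at chr10:93540632-100487350 holds 26 genes and no member, and ends 11.0 Mb before the first one. Its mean level was -0.04 and 0.03 for B16, -0.06 and 0.08 for B16PD1, and 0.26 and 0.25 for R499. Both R499 tumors were above the other 4. The difference was 0.26 ± 0.06 (SE) from B16 with an adjusted p of 0.017 in limma over 440 blocks, and 0.24 from B16PD1 with an adjusted p of 0.025, where 2.27% and 1.14% of blocks passed. The 440 blocks include those that hold members, so the adjusted p-values and shares lean in part on values used in choosing the set. The call of this block was lost under several alternatives. Without centring it fell to 0.15 and its adjusted p was 0.19, and leaving out any one of the 6 tumors gave 0.22 to 0.29 with adjusted p-values from 0.066 to 0.22. The 16 blocks of this size before it had differences from -0.05 to 0.15 and adjusted p-values of at least 0.27.

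Of the 26 genes in that block, 21 had a higher mean in R499 than in B16, against 55.1% of all tested genes, and in 10 both R499 tumors were above the rest, against 14.2%. Without centring these counts were 16 and 3, against 35.8% and 4.47%. One gene of the block was among the 28 of 11264 (0.249%) that passed on their own, Ndufa12, a subunit of respiratory complex I, at 5.80 and 5.68 for B16, 6.22 and 6.49 for B16PD1, and 7.36 and 6.92 for R499, with a difference of 1.40 and an adjusted p of 0.025 in limma over all genes. It no longer passed in limma when either B16 tumor or either R499 tumor was left out, with adjusted p-values up to 0.51, and over 12 other settings the adjusted p ran from 0.0061 to 0.59, with 7 passes. Mrpl42, a protein of the mitochondrial ribosome, and Metap2, a methionine aminopeptidase, named after their values were seen, differed by 1.12 and 0.66 with adjusted p-values of 0.22 and 0.46 in limma. No block of chromosome 10 passed the test in B16PD1 minus B16 (0% of blocks of either size), where the lowest adjusted p was 0.98 and the 3 blocks of 50 genes that hold members differed by 0.0098, -0.0044, and 0.0052.

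**Figure D3:**
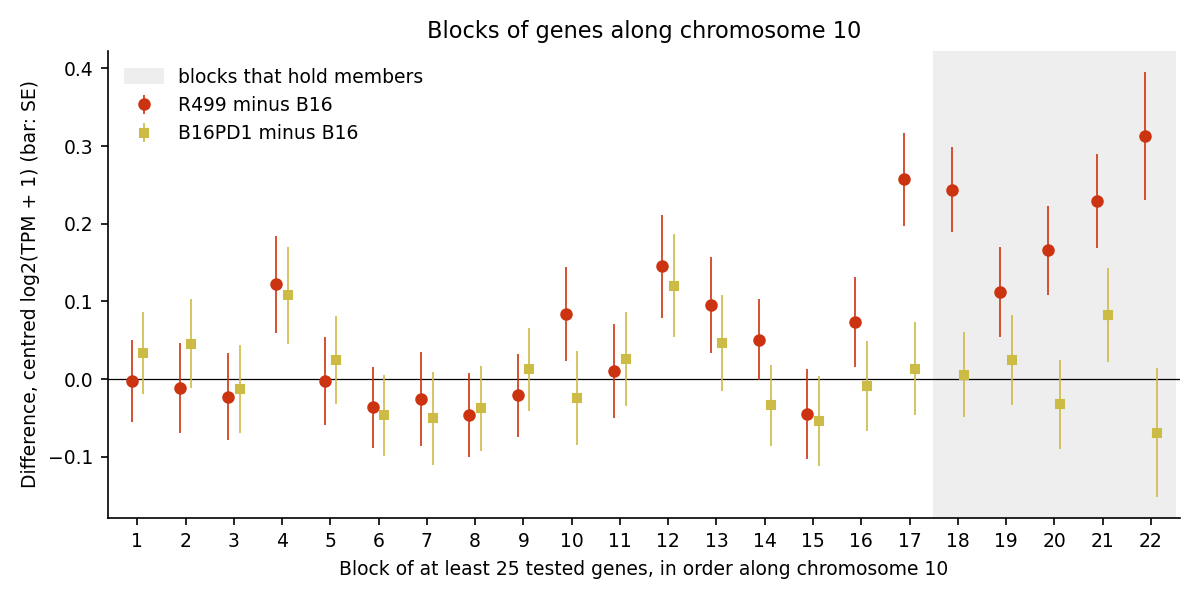
Mean difference of each of 22 blocks of at least 25 tested genes in order along chromosome 10, for R499 minus B16 (circles) and B16PD1 minus B16 (squares), in centred log2(TPM + 1) with limma standard errors as bars; shading marks the blocks that hold members. Block 17 is the first with R499 minus B16 above 0.2, at 0.26, and holds no member.

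Within tumors, the mean of the 46 tested members in a cell had a higher mean in R499 after centring, with a like spread. The tumor means of this score were 0.53 and 0.55 for B16, 0.54 and 0.55 for B16PD1, and 0.74 and 0.78 for R499. Its SD between cells was 0.29 to 0.30 in every tumor. Without centring the means were 2.53 and 2.45 for B16, 2.54 and 2.52 for B16PD1, and 2.56 and 2.66 for R499, with SDs of 0.55 to 0.61. R499015 was then only just above B16PD1000, and the shares of cells that follow are of centred scores. In R499, 74.1% and 74.7% of cells were above the median of the 177 B16 cells, and 19.8% and 24.0% were above the 95th percentile of those cells, against 5.81% and 9.09% in B16PD1. No R499 cell was below the 5th percentile of B16 cells. The Pearson r over cells between the mean of every other member and that of the rest ran from -0.08 to 0.17 in the 6 tumors, and r of the score with the number of genes detected from -0.09 to 0.19, values that share the cell's library and depth and are weak in sparse data. The single members varied between cells about as much in R499 as in B16, with a median ratio of the SDs of 1.04, against 0.98 over all tested genes.

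**Figure D4:**
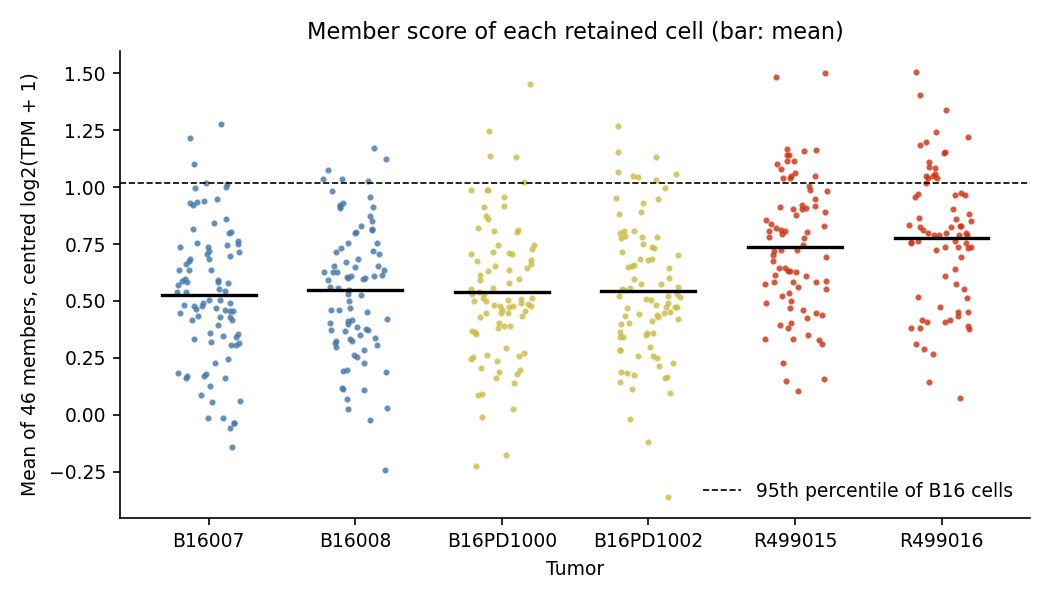
Mean centred log2(TPM + 1) over the 46 tested members in each of the 507 retained cells, by tumor, with a bar at the tumor mean and a dashed line at the 95th percentile of B16 cells, 1.02. The R499 means, 0.74 and 0.78, lie above the other 4, which lie between 0.53 and 0.55, and the cells of every tumor overlap.

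Genes that act with Mdm2 and Cdk4 elsewhere in the genome were counted from 3 lists, leaving out distal chromosome 10. Over all 11264 tested genes, 1235 had an unadjusted p under 0.05 in limma for R499 minus B16. The median difference over all tested genes was 0.03. In the list of Mdm2 and p53, 0 of 23 tested genes passed the test in either direction in R499 minus B16, against 0.249% of all tested genes, with 5 at an unadjusted p under 0.05 and a median difference of 0.00. Its most abundant genes were Trp53, which encodes p53, at 3.65 and 3.59 in B16 and 3.13 and 4.10 in R499, and the apoptosis gene Bax, at 3.04 and 2.38 in B16 and 2.12 and 2.89 in R499. The R499 tumors lay on both sides of one or both B16 tumors for these genes.

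In the list of Cdk4 and Rb, 0 of 18 tested genes passed, with 1 at an unadjusted p under 0.05 and a median difference of 0.05. Ccnd2, a D-type cyclin that binds Cdk4, stood at 5.09 and 4.63 in B16 and 3.76 and 4.62 in R499, and the Cdk inhibitor gene Cdkn1a at 2.40 and 2.01 in B16 and 2.64 and 3.34 in R499. Their differences of -0.67 and 0.78 had adjusted p-values of 0.49 and 0.51 in limma. Of 25 E2F target genes 0 passed and 5 had an unadjusted p under 0.05. Their median difference was -0.22, with 9 of 25 above 0, against 0.03 and 55.1% over all tested genes. Over the tested genes above the median level of the members, these were -0.04 and 45.9%. Pcna, the sliding clamp of DNA replication, differed by -0.22 and Rrm1, a subunit of ribonucleotide reductase, by 0.09. No gene of these lists passed in R499 minus B16PD1 or B16PD1 minus B16 either (0.195% and 0% of all tested genes). In R499 minus B16PD1, 3, 1, and 5 genes of the lists had an unadjusted p under 0.05, and 1357 of all 11264. The E2F targets had a median of -0.30 in that contrast, with 4 of 25 above 0, against 0.05 and 57.2% over all tested genes. In B16PD1 minus B16, 4, 1, and 2 did, and 550 of all 11264.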

How the data were processed

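The authors aligned reads with STAR and quantified transcripts with RSEM at default settings, per the labels on mm10. The deposited values were TPM (transcript abundance divided by length and scaled to a fixed total per cell) for 25215 genes in 602 cells, with no filter on cells or genes. TPM keeps no read count, so the depth is unknown, and genes detected stand in for it. Following the study's methods, cells with more than 1000 genes detected and under 10% mitochondrial TPM were retained, as were genes detected in over 5 of them. The study's minimum of mapped reads per cell could not be applied to TPM, and the 507 cells retained here are more than the study kept. After log2(TPM + 1) and subtraction of each cell's mean, cells were averaged per tumor. The 6 tumors were compared with limma 3.58.1 (R 4.3.3, trend, two-sided, Benjamini-Hochberg over all genes or blocks), without a count model. Fold changes on this scale understate those of low genes. Tumors were matched to conditions by column names, which carry tumor numbers that the sample labels lack. P-values rest on the spread between the 2 mice of a condition, pooled over all conditions and moderated by limma over all genes or blocks.

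The members and lists were chosen with earlier results of these data known. Genes described singly were Cdk4 and Mdm2, the 10 members with the highest level, the 6 with the largest and the 6 with the smallest R499 minus B16 difference, at most 3 others per role, and the 2 most abundant genes of a list. Blocks that hold members were given no p in the R499 contrasts. Positions are those of GENCODE for GRCm38. The limma fit over genes was tested on simulated tumor means, and the other steps were not. Doublets were not called. Other tables were made with Python 3 and pandas.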

Additional observations from a re-analysis of the deposited data

How the results depend on the processing

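No paired analysis was possible because each condition had its own 2 mice. The columns carry tumor numbers and not the replicate numbers of the labels. Reads per value are unknown, and 2 tumors a condition limit every test. The call rules, with their main counts, are those of the report, and the cause of each change below was not tested. In 18 alternatives the members described singly gave 378 values of R499 minus B16, of which 355 kept their sign. Over all 46 tested members 55 of 815 values had the other sign, in 19 members, all of them among the 26 whose R499 tumors overlapped the others. In the 20 without overlap leaving out a tumor cannot turn the sign. No member passed in B16PD1 minus B16, and no listed pathway gene in R499 minus B16, under any of the 18.

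The median R499 minus B16 difference of the members was 0.28 with genes in 10% of cells, 0.38 on log2 of the mean TPM, 0.094 without centring, and 0.33 and 0.10 with pseudocounts of 0.1 and 10, and the median from B16PD1 was 0.24 in cells of 2500 to 5000 genes, 0.12 with genes detected as a covariate, 0.29 on log2 of the mean TPM, 0.042 without centring, and 0.26 and 0.10 with the pseudocounts. Leaving out a tumor gave 0.20 to 0.22 and 0.18 to 0.22. No share of all genes is given for cells of 2500 to 5000 genes, so a count there cannot be read against the main count. Members with both R499 tumors above the rest numbered 12 of 44 tested in those cells. Without centring they numbered 12 of 46, against 4.47% of all tested genes.

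Genes called in R499 minus B16 numbered 46 with all cells, 14 with genes in 10% of cells, 7 without centring, 68 with no gene filter, and 0 with the covariate, 0 without the limma trend, and 0 on log2 of the mean TPM, and 4 to 32 without one tumor. In R499 minus B16PD1 they numbered 13, 8, 95, 0, 0, and 0 under the same alternatives but the first, 11 with strict cells (over 2000 genes, under 5% mitochondrial), and 8 to 28 without one tumor. In B16PD1 minus B16 the count was 1 with no gene filter and 0 to 3 without one tumor.

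Blocks before the members that passed in R499 minus B16 numbered 0 in blocks of 50 genes. They numbered 1 with no gene filter, 1 with strict cells, 1 in blocks of 25 genes, and 0 in blocks of 100 genes. The block of 100 genes from 81.3 to 111.3 Mb holds the 26-gene block and no member. It differed by 0.10 from B16 with an adjusted p of 0.054 in limma. From B16PD1 it differed by 0.13 with an adjusted p of 0.014, which passed. These adjusted p-values also draw on blocks that hold members. The 26-gene block, refitted under alternatives chosen after the data were seen, lost its call at 0.19 with the covariate, 0.30 on log2 of the mean TPM, 0.15 without centring, 0.16 with a pseudocount of 10, and 0.22 to 0.29 without one tumor. The between-cell SD of the R499 score, 0.30, was 0.31 in cells of 2500 to 5000 genes, 0.36 with genes in 10% of cells, 0.60 without centring, 0.28 with no gene filter, 0.45 and 0.17 with the pseudocounts, and 0.31 with strict cells.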
